A study of Homo sapiens with 7 samples.

Results

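The nucleosome positions that carry acetylation of histone H3 at lysine 9 (H3K9ac) or at lysine 27 (H3K27ac) were compared in HepG2 cells. The members were all 76681 H3K9ac peaks and all 95886 H3K27ac peaks, matched by the identifier of the nucleosome position at which each peak was called. They fell on 121089 of 14217405 nucleosome positions. Of 23303 loci with a gene symbol, 13265 had their own coordinates and a symbol listed once, and at each of these both marks were counted within 2 kb of the locus, in its body and within 2 kb of its transcription start site (TSS).

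HepG2 is a human liver cancer cell line. It was studied without treatment, with 1 library each for native MNase-Seq, which maps nucleosomes, for ChIP-Seq of the acetylations H3K9ac and H3K27ac and the methylations H3K4me3, H3K27me3 and H3K9me3, and for RNA-Seq. Every library came from freshly grown cells of the same line, and for each mark the labels name a pair of antibodies from different makers without saying which gave the peaks. With 1 library per mark there are no replicates, so no difference was tested, and the intervals are exact 95% binomial intervals that cover counting error only.

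Acetylation removes the positive charge of a lysine in the histone tail and is recognised by bromodomain and YEATS domain proteins. H3K9ac is laid down mainly by KAT2A and KAT2B, the catalytic subunits of SAGA and ATAC complexes, and is known as a mark of active promoters. H3K27ac is laid down by EP300 and CREBBP, cannot coexist with methylation on the same lysine, and is known from active promoters and active enhancers alike.

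The RNA was that of hepatocyte-like cells. FPKM, a fragment count scaled to transcript length and library size, was 10011 for ALB, 5209 for APOA2 and 3798 for AFP, and PTPRC and CD3E of leukocytes were listed at 0, while KRT19 and EPCAM, which mark bile duct cells, had 110 and 96.9. The peak lists gave no height or P value, and a position without a peak is only one at which none was called. The paper gives only a minimum read number for its ChIP-Seq, so whether the H3K9ac and H3K27ac libraries differed in depth is unknown. The H3K27ac list was 1.25 times as long as the H3K9ac list, a ratio against which the local ratios below can be read.

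The promoters where the marks differed most in number are shown first, since their base composition can be read directly. MFSD1 encodes a lysosomal transporter, LYAR a nucleolar protein of ribosome production and EXOC8 a subunit of the exocyst, and they were among the 5 loci with the largest excess of H3K9ac within 2 kb of the TSS. C8A encodes a chain of complement component 8, SLC17A2 a solute carrier, VTN the plasma protein vitronectin and NEK3 a protein kinase, and they were among the 5 with the largest excess of H3K27ac. SPRY4, an inhibitor of receptor tyrosine kinase signalling, and APOA2, an apolipoprotein of high-density lipoprotein, were among the 5 with the most positions carrying both. Each sequence is the 250 bases before the start of the gene in RefSeq on GRCh38.p14, 5′ to 3′ on the strand of the gene, with CG dinucleotides in capitals. The regions are chr3:158801804-158802053 (plus strand) for MFSD1, chr4:4290155-4290404 (minus strand) for LYAR, chr1:231337853-231338102 (minus strand) for EXOC8, chr1:56854547-56854796 (plus strand) for C8A, chr6:25930692-25930941 (minus strand) for SLC17A2, chr17:28370308-28370557 (minus strand) for VTN, chr13:52159598-52159847 (minus strand) for NEK3, chr5:142324248-142324497 (minus strand) for SPRY4 and chr1:161223629-161223878 (minus strand) for APOA2. The peaks are on hg19. Whether RefSeq and the expression table place each start at the same base was not compared, apart from the start pair of EXOC8 described below.
MFSD1: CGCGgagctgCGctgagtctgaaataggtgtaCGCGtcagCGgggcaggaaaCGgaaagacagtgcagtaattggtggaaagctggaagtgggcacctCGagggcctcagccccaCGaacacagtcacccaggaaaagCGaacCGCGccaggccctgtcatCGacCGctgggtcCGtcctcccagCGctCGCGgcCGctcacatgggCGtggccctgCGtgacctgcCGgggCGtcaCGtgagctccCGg
LYAR: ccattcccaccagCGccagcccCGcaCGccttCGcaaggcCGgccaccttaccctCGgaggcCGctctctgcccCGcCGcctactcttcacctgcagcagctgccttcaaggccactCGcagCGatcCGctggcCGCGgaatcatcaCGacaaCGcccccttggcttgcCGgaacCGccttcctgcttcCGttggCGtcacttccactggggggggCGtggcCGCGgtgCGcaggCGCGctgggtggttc
EXOC8: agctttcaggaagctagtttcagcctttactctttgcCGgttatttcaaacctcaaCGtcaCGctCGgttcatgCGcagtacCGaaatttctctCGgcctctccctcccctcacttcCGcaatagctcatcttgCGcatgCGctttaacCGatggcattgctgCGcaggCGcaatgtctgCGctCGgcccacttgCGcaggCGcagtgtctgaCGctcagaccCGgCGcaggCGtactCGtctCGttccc
C8A: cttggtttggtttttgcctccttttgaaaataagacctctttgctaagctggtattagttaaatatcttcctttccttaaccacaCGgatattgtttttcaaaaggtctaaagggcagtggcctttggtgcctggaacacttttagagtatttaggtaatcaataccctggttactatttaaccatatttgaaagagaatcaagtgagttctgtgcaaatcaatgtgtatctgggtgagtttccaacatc
SLC17A2: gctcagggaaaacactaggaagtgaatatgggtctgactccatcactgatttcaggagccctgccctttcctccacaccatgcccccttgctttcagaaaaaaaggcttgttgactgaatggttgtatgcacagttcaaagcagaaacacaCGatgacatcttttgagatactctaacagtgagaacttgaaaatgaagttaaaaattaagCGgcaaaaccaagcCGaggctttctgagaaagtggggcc
VTN: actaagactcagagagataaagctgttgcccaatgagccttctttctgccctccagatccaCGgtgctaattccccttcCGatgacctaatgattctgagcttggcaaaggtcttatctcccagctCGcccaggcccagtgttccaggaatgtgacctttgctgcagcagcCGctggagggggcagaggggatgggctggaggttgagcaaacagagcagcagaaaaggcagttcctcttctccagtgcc
NEK3: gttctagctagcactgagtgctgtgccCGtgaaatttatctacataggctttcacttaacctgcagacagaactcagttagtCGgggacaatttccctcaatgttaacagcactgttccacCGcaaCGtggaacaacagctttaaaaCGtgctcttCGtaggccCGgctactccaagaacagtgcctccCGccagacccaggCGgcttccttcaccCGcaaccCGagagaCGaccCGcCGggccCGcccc
SPRY4: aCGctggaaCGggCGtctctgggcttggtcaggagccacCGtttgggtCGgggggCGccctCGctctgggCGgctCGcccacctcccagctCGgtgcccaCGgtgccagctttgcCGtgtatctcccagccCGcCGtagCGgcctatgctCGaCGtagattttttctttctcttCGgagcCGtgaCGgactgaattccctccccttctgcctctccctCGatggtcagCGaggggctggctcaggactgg
APOA2: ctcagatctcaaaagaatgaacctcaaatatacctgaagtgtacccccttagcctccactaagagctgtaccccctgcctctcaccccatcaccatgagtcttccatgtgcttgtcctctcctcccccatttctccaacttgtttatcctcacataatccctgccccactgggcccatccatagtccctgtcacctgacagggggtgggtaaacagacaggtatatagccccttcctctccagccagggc

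CG was counted at 25 places upstream of MFSD1, 26 of LYAR and 23 of EXOC8. The other loci with the largest H3K9ac excess, C1orf124 and MYEOV2, had 19 and 28, and the region of C1orf124 overlaps that of EXOC8. Upstream of C8A it was found 1 time, of SLC17A2 3 times and of VTN 4 times, but NEK3, with an H3K27ac excess as well, had 15. The loci rich in both marks covered the whole span, with 0 at APOA2, 4 at BPIL1, 13 at RCC1 and 22 at SPRY4. Over all 27284 promoters of the RefSeq table the median was 10 CG, with a 10th percentile of 1 and a 90th percentile of 31. Over the 9407 analysed loci with a matched promoter these values were 16, 2 and 33, so NEK3 and RCC1 lay above the first median and below the second. A promoter of the same symbol, chromosome and strand was found for 70.9% of the loci analysed, from 63.5% to 78.7% by acetylation class, which is too few for a comparison of classes, and none was made. APOF and CX3CL1, which the same rules name, had no matched promoter.

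On single nucleosomes, most H3K9ac coincided with H3K27ac, and less of H3K27ac coincided with H3K9ac. Both marks were called on 51478 positions. These were 67.1% of the H3K9ac peaks (95% interval 66.8 to 67.5) and 53.7% of the H3K27ac peaks (53.4 to 54.0). The remaining 25203 H3K9ac peaks and 44408 H3K27ac peaks had the position to themselves as far as these 2 marks go. Exact matching counts marks on adjacent nucleosomes as apart, and when a neighbouring position also counted, the shares were 78.9% and 62.8%.

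The 3 kinds of acetylated position differed in the other marks they carried. H3K4me3, a methylation typical of active promoters, was on 83.3% (83.0 to 83.6) of the positions with both acetylations and on 60.9% (60.3 to 61.6) of those with H3K9ac but not H3K27ac. It was on 8.61% (8.35 to 8.87) of those with H3K27ac but not H3K9ac. H3K27me3, the Polycomb mark, shared its nucleosome with 298 H3K9ac peaks (0.389%, 0.346 to 0.435) and with 27 H3K27ac peaks (0.0282%, 0.0186 to 0.0410). With H3K27me3 on an adjacent position the numbers were 303 and 32. H3K9me3, a mark of heterochromatin, was about as rare with both, at 216 H3K9ac peaks (0.282%) and 196 H3K27ac peaks (0.204%).

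An H3K9ac position without H3K27ac usually lay close to H3K27ac, and an H3K27ac position without H3K9ac less often lay close to H3K9ac. Of the former, 35.9% (35.3 to 36.5) had H3K27ac on an adjacent position, the median distance to the nearest H3K27ac was 650 bp, and 31.8% had none within 10 kb. Of the latter, 19.7% (19.3 to 20.1) had H3K9ac on an adjacent position, the median distance was 4380 bp, and 39.8% had none within 10 kb.

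The marks divided with distance from the TSS of any of 22065 named loci with an inferred strand. Within 0.5 kb, 72.8% (72.1 to 73.4) of the acetylated positions carried both, 18.9% carried H3K9ac without H3K27ac and 8.35% carried H3K27ac without H3K9ac. From 0.5 to 1 kb the share with H3K9ac without H3K27ac was 31.8% (31.0 to 32.6). Beyond 100 kb the order was turned: 20.4% (19.7 to 21.1) carried both, 14.1% H3K9ac without H3K27ac and 65.5% (64.8 to 66.3) H3K27ac without H3K9ac. The number of H3K27ac peaks per H3K9ac peak was 0.885 within 0.5 kb and 0.737 from 0.5 to 1 kb. It passed 1 between 2 and 5 kb, at 1.10, and reached 2.49 beyond 100 kb.

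**Figure D1:**
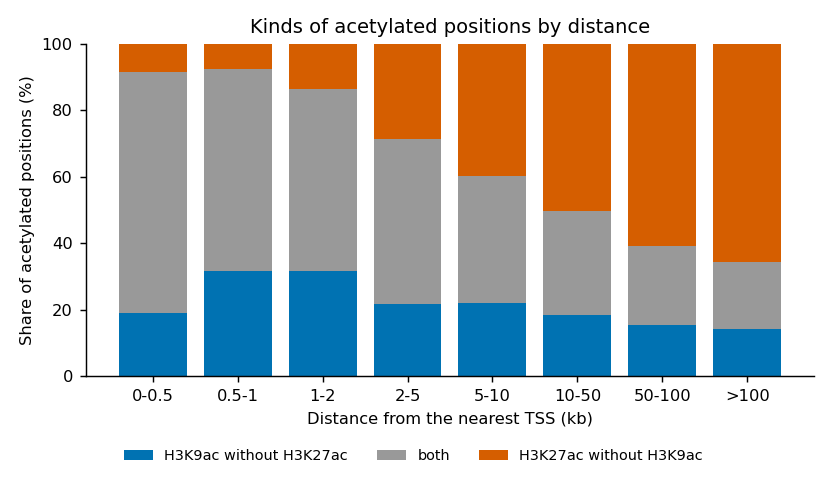
Share of acetylated nucleosome positions (y axis, percent) that carried H3K9ac without H3K27ac, both, or H3K27ac without H3K9ac, by distance from the nearest TSS of a named locus (x axis, kb). The share with H3K27ac without H3K9ac grew from 8.35% within 0.5 kb to 65.5% beyond 100 kb, and the share with both fell from 72.8% to 20.4%.

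Around the TSS of the 6328 expressed loci (FPKM of at least 1), both marks had their maximum at the same place, and H3K9ac reached farther into the gene. From 200 to 400 bp downstream, 71.1% (69.8 to 72.4) of the nucleosome positions carried H3K9ac and 64.7% (63.3 to 66.0) carried H3K27ac. From 600 to 800 bp downstream the shares were 58.0% and 41.5%, and from 800 to 1000 bp they were 44.0% and 29.4%. H3K27ac peaks numbered 0.667 per H3K9ac peak in that last bin, the lowest value between 1 kb upstream and 2 kb downstream. In the first 200 bp on either side of the TSS the ratio was 0.972 upstream and 0.974 downstream. Upstream, from 1200 to 2000 bp, H3K27ac was the more frequent mark, with 1.58% against 1.14% of positions in the outermost of these bins. Within 2 kb of the TSS of expressed loci, 74.6% (74.1 to 75.1) of the H3K9ac and 71.96% (71.4 to 72.5) of the H3K27ac positions lay downstream.

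**Figure D2:**
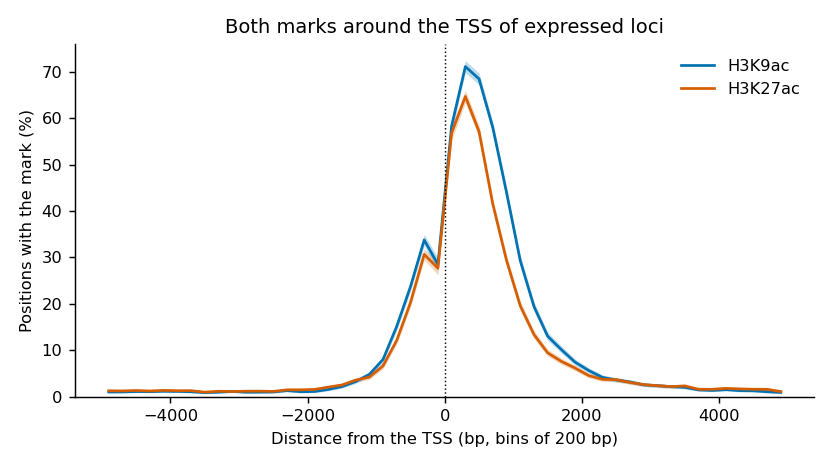
Percent of nucleosome positions with H3K9ac or H3K27ac (y axis) in bins of 200 bp around the TSS of 6328 expressed loci (x axis, bp, downstream positive), with shaded exact 95% intervals. Both curves peak from 200 to 400 bp downstream, at 71.1% and 64.7%, and the H3K9ac curve stays above the H3K27ac curve to about 2 kb downstream.

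Per locus, the 2 acetylations were mostly found together. Within 2 kb of the locus, 8170 of the 13265 loci had at least 1 of the marks, and 6712 of these (82.2%, 81.3 to 83.0) had both, 1204 had H3K9ac and no H3K27ac, and 254 had H3K27ac and no H3K9ac. In the body the corresponding numbers were 6299 of 7733 loci (81.5%, 80.6 to 82.3), 1182 and 252. Within 2 kb of the TSS they were 5835 of 6872 (84.9%, 84.0 to 85.7), 914 and 123. Where a TSS window had both marks, they shared at least 1 nucleosome at 5780 of 5835 loci, or 99.1%. The counts of the marks ranked the loci alike, with a Spearman correlation across loci with either mark of 0.741 in the locus window, 0.696 in the body and 0.783 at the TSS. Those values describe loci of the same 2 libraries and share their nucleosome map, and loci with more nucleosome positions can hold more of either mark.

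The numbers of positions moved apart between the TSS and the body. Within 2 kb of a TSS of the analysed loci there were 27596 H3K9ac and 22056 H3K27ac peaks, a ratio of 0.799 (0.785 to 0.814). In gene bodies beyond 2 kb of a TSS there were 9238 and 19899, a ratio of 2.15 (2.101 to 2.21), and outside both regions, where the loci left out also lie, the ratio was 1.35. Over all 22065 named loci with an inferred strand the ratio was 0.812 at the TSS, 1.67 in bodies and 1.73 outside, so the order of bodies and outside turned with the set of loci. The TSS windows of the analysed loci held 36.0% of all H3K9ac and 23.0% of all H3K27ac peaks, and those of all named loci held 50.1% and 32.6%. In the bodies beyond 2 kb of a TSS, the ratio was higher in longer loci. It was 0.871 (0.761 to 0.997) under 10 kb, 1.39 from 10 to 30 kb, 2.09 from 30 to 100 kb and 2.71 (2.61 to 2.81) from 100 kb. H3K9ac was on 0.909% of the nucleosome positions of these bodies under 10 kb and on 0.154% from 100 kb. H3K27ac was on 0.792%, 0.829%, 0.669% and 0.418% in order of length. Both marks were thus sparsest in the longest loci, and H3K9ac fell further.

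A locus was said to lean to a mark if it had at least 3 more positions of it and at least 2 times as many. Within 2 kb of the locus, 740 of the 8170 acetylated loci leaned to H3K9ac (9.06%) and 853 to H3K27ac (10.4%). This order depended on the scale: with the H3K27ac counts divided by the ratio of the list lengths, 897 leaned to H3K9ac and 430 to H3K27ac. With a difference of at least 5 positions in place of 3, it was 148 and 663. In the body 580 of 7733 (7.5%) leaned to H3K9ac and 893 (11.5%) to H3K27ac. Within 2 kb of the TSS 651 of 6872 (9.47%) leaned to H3K9ac and 96 (1.4%) to H3K27ac, and with the scaled counts 781 and 31. Loci leaning to H3K27ac in the locus window had a median length of 84124 bp, against 27712 bp for those leaning to H3K9ac and 32585 bp for those with both marks. A longer locus holds more positions and can reach a difference of 3 more easily.

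Nearly all windows that leaned to H3K9ac at the TSS carried H3K4me3. It was present in 648 of the 651 (99.5%, 98.7 to 99.9), with a median of 6 positions. The share was alike in all windows with both marks, at 99.1% (98.8 to 99.3). Of the 472 that had any H3K27ac, all H3K27ac positions were also H3K9ac positions at 455 (96.4%, 94.3 to 97.9). The rule for leaning keeps windows with few positions of the other mark, which favours such nesting. Counted by peak rather than by window, 88.2% of all H3K27ac within 2 kb of an analysed TSS had H3K9ac. H3K27me3 was present at 29 of the 651 (4.45%, 3.003 to 6.34), against 0.788% (0.578 to 1.05) of all windows with both marks. The 651 include windows with no H3K27ac, and H3K27me3 was present in 19.1% of all windows with H3K9ac and no H3K27ac. The median FPKM of the 651 was 6.05 (5.17 to 6.83). H3K4me3 was present at 63 of the 96 windows that leaned to H3K27ac (65.6%, 55.2 to 75.02), with a median of 2 positions. Of the 75 of these with any H3K9ac, the H3K9ac positions all carried H3K27ac at 57 (76.0%, 64.7 to 85.1). By peak, 70.5% of all H3K9ac within 2 kb of an analysed TSS had H3K27ac.

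MFSD1, whose promoter is printed above, had the largest excess of H3K9ac at a TSS. It had 9 positions with H3K9ac, from -648 to 857 bp of the TSS, and 0 with H3K27ac, and its FPKM was 23.8 and 24.4 in the 2 runs of RNA-Seq. No other named TSS lay within 2 kb. C1orf124, the protease SPRTN of DNA-protein crosslink repair, and EXOC8 start 3 bp apart on opposite strands in the expression table. They share their window, in which 12 positions had H3K9ac and 3 of these H3K27ac. Their FPKM was 7.37 and 5.19 as the mean of both runs. In RefSeq the 250 bases before C1orf124 are chr1:231338043-231338292 and overlap those before EXOC8, so the 2 starts lie farther apart there. MYEOV2, the COP9 signalosome subunit COPS9, had 11 and 3, with the H3K27ac positions between 180 and 542 bp downstream, and an FPKM of 94.9. LYAR had 9 and 1 and an FPKM of 27.8, and the TSS of ZBTB49 lies 28 bp away. At MYEOV2 and LYAR every position with H3K27ac carried H3K9ac as well.

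C8A had the largest excess of H3K27ac at a TSS, with 3 H3K9ac and 13 H3K27ac positions. The 10 positions with H3K27ac without H3K9ac ran from -1876 to 1541 bp of the TSS, and the 3 with both lay downstream, between 354 and 1371 bp. Its FPKM was 4.87 and 5.13 in the runs. SLC17A2 had 9 H3K27ac positions between -392 and 1268 bp and 0 H3K9ac, with an FPKM of 5.76. APOF, an apolipoprotein, had 2 H3K9ac and 11 H3K27ac positions and an FPKM of 3.41. VTN had 3 and 11 and an FPKM of 44.4, and the TSS of SARM1 lies 1436 bp away within its window. NEK3 had 2 and 10, with most of the H3K27ac upstream, from -1925 to 240 bp. C8A, APOF and VTN encode proteins that the liver secretes into plasma. H3K4me3 was on 4 positions of the window at C8A, 2 at VTN, 2 at NEK3, 1 at APOF and 0 at SLC17A2, against 7 at MFSD1, 15 at C1orf124 and EXOC8, 8 at MYEOV2 and 9 at LYAR.

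At the loci with the most positions carrying both marks, the marks nearly coincided, with APOA2 as the exception. These loci were picked by that number, in windows of 17 to 24 nucleosome positions, so near coincidence is in part built in. Of all peaks within 2 kb of an analysed TSS, 70.5% of H3K9ac and 88.2% of H3K27ac shared their position. BPIL1, now BPIFB2, had both on 14 positions and only H3K27ac on 1, with an FPKM of 68.7. SPRY4 had both on 13 and only H3K9ac on 1. RCC1, the exchange factor of the GTPase Ran, had both on 12 and only H3K27ac on 1, and CX3CL1, the chemokine fractalkine, had both on 12 and neither alone on any. APOA2 had both on 12 positions, all downstream from 131 to 1696 bp, and H3K27ac without H3K9ac on 7, all upstream from -1894 to -244 bp. The FPKM of APOA2 was 5095 and 5323 in the runs.

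**Figure D3:**
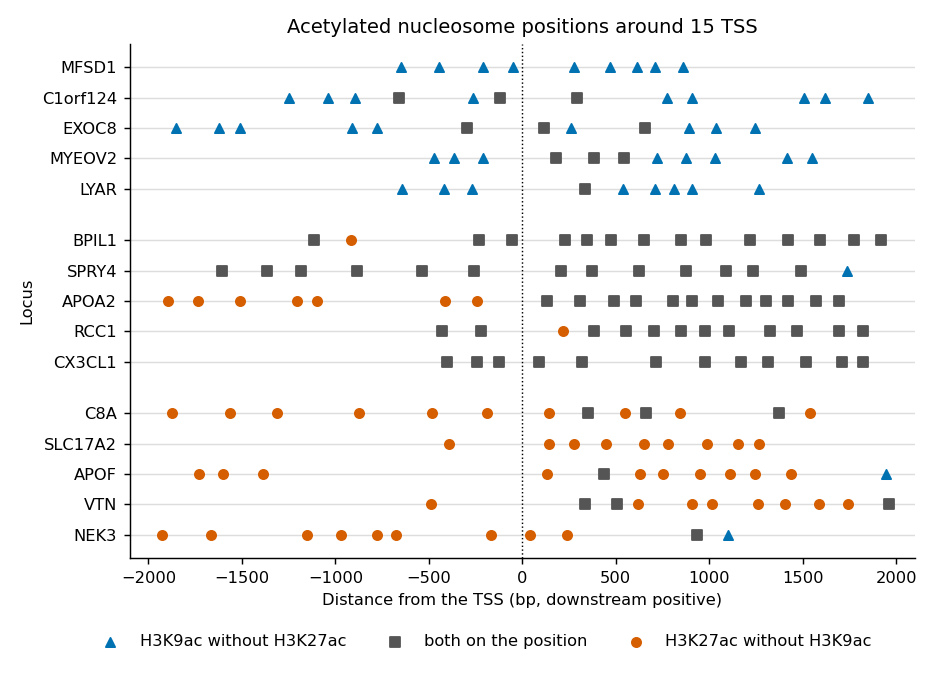
Acetylated nucleosome positions within 2 kb of the TSS (x axis, bp, downstream positive) at the 5 loci each with the largest H3K9ac excess, the most positions with both marks and the largest H3K27ac excess (y axis, top to bottom). Each symbol is 1 nucleosome position, and at APOA2 all 12 positions with both marks lie downstream and all 7 with H3K27ac without H3K9ac lie upstream.

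Over whole loci, the largest excess of H3K27ac was found in long genes and was carried by the body. The ranking is by difference in counts, which can be larger where a locus holds more positions. In bodies beyond 2 kb of a TSS, loci from 100 kb had the lowest share of positions with H3K27ac, 0.418%. LOC646324 (chromosome 2, 216476286 to 216708259 on hg19) had 18 H3K9ac and 99 H3K27ac positions within 2 kb of the locus, and all 18 carried both, although its FPKM was 0.0113 and 0.0651 in the runs and its TSS window had 0 of either mark. FGGY, a carbohydrate kinase (466 kb), had 16 and 75. STARD13, a GTPase-activating protein (574 kb), had 35 and 91. WWOX, an oxidoreductase with WW domains (1113 kb), had 16 and 67, and PARD3, a cell polarity protein (706 kb), had 17 and 57. At the TSS the counts were 5 and 7 at FGGY, 2 and 2 at WWOX and 3 and 3 at PARD3. STARD13 had 6 and 5 with 0 shared positions, all 6 with H3K9ac downstream and all 5 with H3K27ac upstream of the TSS.

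The excess of H3K9ac over whole loci was smaller in number. COL8A2, a collagen VIII chain, had 13 H3K9ac and 1 H3K27ac positions, 13 and 1 of them in the body, and an FPKM of 0.0572 and 0.0935 in the runs. TNK2, a non-receptor tyrosine kinase, had 12 and 1, and MFSD1, C1orf124 and EXOC8 followed with the counts of their TSS windows. GREB1, an oestrogen-regulated gene, had both marks on 26 positions of the locus (28 H3K9ac and 38 H3K27ac) and 0 of either at its listed TSS. CDK6, a cell cycle kinase, had both on 24 (26 and 38), and 11 of 11 positions of each mark coincided at its TSS. ARID5B had both on 24 (32 and 54), and TBC1D16 on 22 (27 and 36). In the body GPC6, a glypican, had both on 21 (22 and 50).

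Loci whose TSS carried both marks had a higher median FPKM than those with 1 of them. The median FPKM was 12.3 (11.8 to 12.7) with both, 0.350 (0.269 to 0.474) with H3K9ac and no H3K27ac, 0.696 (0.382 to 1.25) with H3K27ac and no H3K9ac and 0.00649 with neither. The intervals of the classes with 1 mark overlapped, and both lay under that of the class with both. This overlap depended on the window: within 1 kb of the TSS the medians were 0.515 (0.354 to 0.638) with H3K9ac and no H3K27ac and 2.57 (1.25 to 4.65) with H3K27ac and no H3K9ac, and within 5 kb they were 0.201 (0.146 to 0.243) and 0.218 (0.111 to 0.402). FPKM was at least 1 at 93.4% of the loci with both, 36.8% (33.6 to 40.0) with H3K9ac and no H3K27ac, 42.3% (33.4 to 51.5) with H3K27ac and no H3K9ac and 7.66% with neither. The classes with 1 mark also had fewer positions: 735 of the 914 loci with H3K9ac and no H3K27ac had only 1 or 2.

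At similar numbers of H3K9ac positions, expression was higher where H3K27ac was present. With 1 or 2 H3K9ac positions the median FPKM was 0.233 (0.186 to 0.295) without H3K27ac and 6.25 (5.36 to 7.35) with 1 or 2 H3K27ac positions. With 3 to 5 H3K9ac positions it was 1.35 (0.841 to 2.01) without H3K27ac, 8.30 with 1 or 2, 12.8 with 3 to 5 and 17.95 with 6 or more. The same held the other way round: with 1 or 2 H3K27ac positions the median was 0.521 (0.218 to 0.987) without H3K9ac and 8.30 (7.34 to 9.37) with 3 to 5 H3K9ac positions. It was 18.5 (16.9 to 19.7) where both marks had 6 or more positions.

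**Figure D4:**
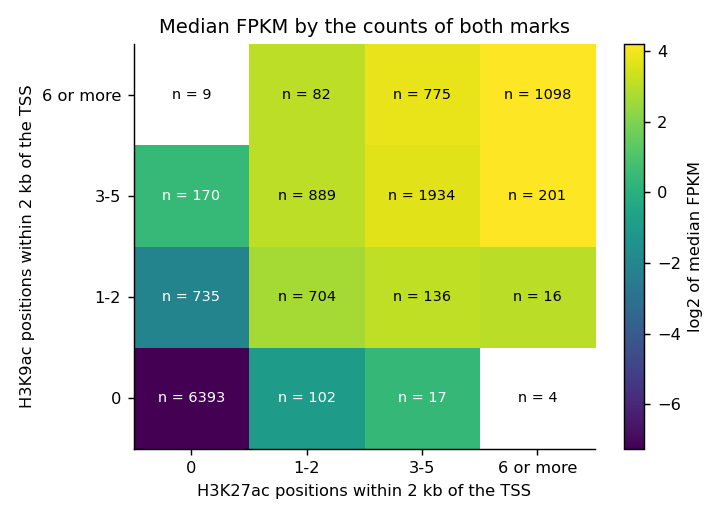
Median FPKM (colour, log2 scale) of loci grouped by the number of H3K27ac (x axis) and H3K9ac (y axis) positions within 2 kb of the TSS, with the number of loci in each field and no value where fewer than 10 loci fell. The fields with 1 mark reach at most 1.35 FPKM, and the fields with both marks start at 6.25.

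The balance of the marks at the TSS shifted with expression. Below 0.1 FPKM a mean of 0.151 H3K9ac and 0.0702 H3K27ac positions was found per TSS window, a ratio of 0.466. The ratio was 0.561 from 0.1 to 1 FPKM, 0.734 from 1 to 5, 0.818 from 5 to 20, 0.866 from 20 to 100 and 0.877 from 100. Of the loci below 0.1 FPKM with any acetylation at the TSS, 65.4% (60.8 to 69.7) had H3K9ac and no H3K27ac, against 2.17% (0.943 to 4.24) from 100 FPKM.

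The TSS windows with H3K9ac and no H3K27ac also differed in H3K27me3. It was present in 175 of the 914 (19.1%, 16.6 to 21.8), in 46 of the 5835 with both marks (0.788%, 0.578 to 1.05) and in 5 of the 123 with H3K27ac and no H3K9ac (4.07%, 1.33 to 9.23). Windows with neither acetylation had it at 16.2% (15.3 to 17.1). H3K4me3 was present in 84.7% (82.2 to 87.0) of the windows with H3K9ac and no H3K27ac and in 23.6% (16.4 to 32.1) of those with H3K27ac and no H3K9ac.

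Among highly expressed loci with 1 acetylation at the TSS, plasma proteins stood on both sides. AFP, the fetal counterpart of albumin, had 3 H3K9ac and 0 H3K27ac positions within 2 kb of the TSS at an FPKM of 3732 and 3864 in the runs, and 7 and 2 over the locus with 0 shared positions. MT1X, a metallothionein, had 4 and 0 at an FPKM of 119, and CALR, the chaperone calreticulin, had 2 and 0 at 445. ALDOA, of glycolysis, and GSN, the actin-severing protein gelsolin, had 1 and 0 at the TSS but 12 and 9 and 12 and 23 over the locus. SERPINA1, alpha-1-antitrypsin, had 0 and 3 at the TSS and 7 and 8 over the locus at an FPKM of 1061. AHCY, of methionine metabolism, had 0 and 2 at 206, and TMEM123, DUSP9 and TTR, the carrier transthyretin, had 0 and 1 at 279, 256 and 152. TF, transferrin, had 0 of either at its listed TSS but 13 and 16 over the locus at an FPKM of 1006. AKR1C1, an aldo-keto reductase, and H3F3A, which encodes histone H3.3, were alike, with 6 and 4 and with 8 and 6 over the locus, and their FPKM is uncertain since both have near-identical gene copies. MTRNR2L9 and IL12RB2, also without acetylation at the TSS, had 0 over the locus, and the place of IL12RB2 rests on 1 run, with an FPKM of 5476 against 0.0324. The listed end of a locus is its outermost start, so a promoter inside the locus is counted in the body.

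In the list of plasma proteins that hepatocytes secrete, H3K27ac and H3K9ac were the more numerous at similar numbers of TSS windows. Of the 28 analysed among 38 members, 21 had either mark at the TSS, and H3K27ac was the more numerous at 11 (52.4%, 29.8 to 74.3) and H3K9ac at 9. Within 1 kb of the TSS H3K27ac was the more numerous at 10 of 20 and within 5 kb at 10 of 21, windows added after seeing the data. Over all 6872 loci acetylated at the TSS, H3K27ac was the more numerous at 14.1% (13.3 to 14.9) and H3K9ac at 60.4%. The summed counts were 95 H3K9ac and 110 H3K27ac positions, a ratio of 1.16 against 0.799 over all loci. This sum leans on few members, since the largest excesses were at VTN (3 and 11) and APOA2 (12 and 19). The median difference of H3K27ac minus H3K9ac was 0 in the list and 0 over all loci, with loci without acetylation included. Over all 13265 loci, 6393 had neither mark and 1751 had equal counts, so that median could only be 0. Members leaning to H3K27ac at the TSS were VTN, SERPINA1, SERPINC1 (antithrombin, 4 H3K9ac and 8 H3K27ac) and ITIH3 (4 and 9). That is 4 of 21 acetylated members, against 1.4% of all loci acetylated at the TSS. AFP and C3 of complement (6 and 1) leaned to H3K9ac. KNG1, kininogen, had 2 and 1 at the TSS but 3 and 14 in the locus window, AHSG had 9 and 6 and then 12 and 6, and ALB had 3 and 2 and then 13 and 8. FGB, FETUB, PLG, HRG and GC had 0 of either mark in the locus window.

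In the list of transcription factors of hepatocytes, H3K9ac was the more numerous at more TSS windows and H3K27ac at more whole loci. All 17 analysed of 27 members were acetylated at the TSS, with 107 H3K9ac and 100 H3K27ac positions, a ratio of 0.935, and H3K9ac was the more numerous at 8 and H3K27ac at 4. Over the locus window they had 152 and 184, a ratio of 1.21 against 1.12 over all loci, and H3K27ac was the more numerous at 10 of 17 (58.8%, 32.9 to 81.6) against 31.7% of all acetylated loci. ONECUT1 had 7 and 7 at the TSS and 11 and 22 over the locus, and GATA6 had 4 and 5 and then 4 and 10. NR1I2, the pregnane X receptor, had 3 and 1 and then 4 and 8. ONECUT2, with 6 and 0 at the TSS, and NR5A2, with 4 and 0 over the locus at an FPKM of 0.336, were on the H3K9ac side, and FOXA2 had 10 and 10 on the same positions.

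Ribosomal protein and proteasome loci stayed on the H3K9ac side of the TSS, as most acetylated loci did. The 32 acetylated ribosomal protein loci had a ratio of 0.806, with H3K9ac the more numerous at 20 and H3K27ac at 2. The 26 acetylated proteasome loci had a ratio of 0.803, with H3K9ac the more numerous at 15 and H3K27ac at 1, and PSMD3 (6 and 3) and PSMC1 (4 and 1) leaned to H3K9ac. RPLP1 had both marks on 8 of 8 positions at an FPKM of 2147. DNA replication loci had a ratio of 0.944 at 24 of 24 acetylated loci, with H3K9ac the more numerous at 13 and H3K27ac at 7. MCM5, a subunit of the replicative helicase, leaned to H3K27ac with 2 and 7. The 12 acetylated cholesterol synthesis loci were nearly balanced, with a ratio of 0.985. H3K9ac was the more numerous at 4 of them, H3K27ac at 3, and 5 had equal counts. HSD17B7 leaned to H3K27ac (2 and 9). The 248 acetylated zinc finger loci had a ratio of 0.772, and 22 leaned to H3K9ac and 1 to H3K27ac, beside 9.47% and 1.4% of all acetylated TSS windows.

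Immediate early genes, which serum and stress induce, held 6 of 20 acetylated loci with H3K9ac and no H3K27ac at the TSS, EGR3, KLF2, KLF4, NR4A1, NR4A2 and NR4A3. Those 6 had an FPKM between 0.0132 (NR4A2) and 1.78 (NR4A1), and H3K4me3 was on 1 (KLF4) to 9 (NR4A2) positions of their windows. Over all acetylated loci the share with H3K9ac and no H3K27ac was 13.3%. FOS had 4 H3K9ac and 1 H3K27ac positions and CTGF 7 and 3, while JUND had 6 and 6, KLF6 9 and 9 and BTG2 7 and 7. H3K27ac was the more numerous at JUNB alone, with 3 and 4.

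**Figure D5:**
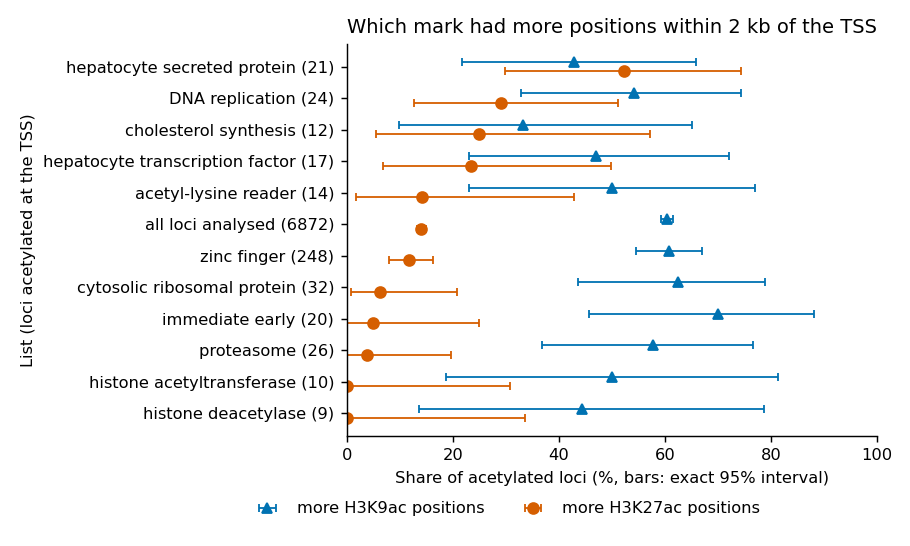
Share of loci acetylated at the TSS (x axis, percent, with exact 95% intervals) at which H3K9ac or H3K27ac had more positions within 2 kb of the TSS, for the lists with at least 9 such loci and for all loci (y axis, number of loci in brackets). H3K27ac was the more numerous at 52.4% of the acetylated loci of secreted hepatocyte proteins and at 14.1% of all.

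The genes of the acetylation machinery itself also carried both marks, as most acetylated loci did. Of the 11 acetyltransferase loci analysed, 10 were acetylated at the TSS, and these 10 all had both marks. None of them had more H3K27ac than H3K9ac there, and CREBBP (7 H3K9ac and 3 H3K27ac) and NCOA1 (5 and 1) leaned to H3K9ac. Over all acetylated TSS windows 84.9% had both marks, 60.4% more H3K9ac and 14.1% more H3K27ac, and 9.47% leaned to H3K9ac. The interval of 0 of 10 reaches 30.8%. EP300 had 6 and 6 on the same positions, KAT2A 1 and 1 and KAT2B 3 and 1. NCOA2 had 5 and 5 at the TSS and 9 and 21 over the locus. Of 10 deacetylase loci, 9 were acetylated at the TSS, all with both marks, and H3K9ac was the more numerous at 4 of the 9. Of 15 loci of acetyl-lysine readers, 14 were acetylated at the TSS, all with both marks. H3K9ac was the more numerous at 7 of the 14 and H3K27ac at 2. TRIM33, 1 of those 2, had 6 and 8 at the TSS and 8 and 24 over the locus, and MLLT1 3 and 2 and then 3 and 10, while its relative MLLT3 had 6 and 3 in both windows.

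In the lists of olfactory receptors and brain ion channels few TSS windows were acetylated, against 6872 of 13265 over all loci. Of 318 olfactory receptor loci analysed, 1 had an acetylated position at the TSS, and it was H3K9ac. Of 18 ion channel loci of the brain, SCN8A had 2 H3K9ac and 1 H3K27ac position at the TSS and the others had 0 there. In the locus window 4 of the 18 were acetylated, and SCN3A leaned to H3K27ac with 0 and 4.

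Acetylated positions no more than 1 kb apart were joined into 36851 stretches. Of these, 45.5% held both marks, 32.3% H3K27ac without H3K9ac and 22.2% H3K9ac without H3K27ac, and 79.0% of the last kind were single positions. Among stretches of at least 5 positions with both marks, single marks were more frequent at the ends. A stretch was joined from positions with either mark and ends where the farther-reaching mark ends. A higher share of single marks at the ends is therefore in part built in, and how large that part is was not tested. Near a TSS, 41.1% (40.1 to 42.2) of the end positions carried H3K9ac without H3K27ac, against 13.8% (13.3 to 14.2) of the inner ones. Farther than 2 kb from a TSS, 46.1% (45.02 to 47.2) of the end positions carried H3K27ac without H3K9ac, against 35.4% (34.8 to 36.0) of the inner ones, and 20.8% (19.9 to 21.7) carried H3K9ac without H3K27ac, against 6.65% (6.33 to 6.99). Inner positions carried both marks at 78.2% near a TSS and at 57.9% elsewhere.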

How the data were processed

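From native MNase-Seq, the authors called nucleosome positions with DANPOS, tested each position for ChIP-Seq enrichment over input with NUCLIZE, and deposited coordinates with position identifiers, without counts, heights or P values. The submitters' processing notes name hg19 and BWA for these, and TopHat2 2.1.0, Bowtie, HOMER 4.7 and edgeR for RNA-Seq. The authors deposited FPKM in 2 columns of 1 sample, here called run 1 and run 2, of which the mean was used. Their p-value, q-value and fold change columns compare these columns and were not used. The annotation is not given in the sources used here.

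Every marked position matched a listed nucleosome by identifier and midpoint. A locus is a named row of the expression table. Strand was inferred from locus numbering and equalled the RefSeq strand at 8396 of 8425 loci analysed. Loci sharing coordinates (86.9% equal) or symbols were left out, which gave 13265. Marks were counted by position midpoint. Medians have order-statistic intervals, shares Clopper-Pearson intervals, and ratios the interval of the share of H3K27ac in the sum, which ignores that peaks can share a position.

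Members, lists and rules were chosen with earlier results of these data known. The loci named are, for each window, the 5 with the largest excess of either mark and the 5 with the most shared positions, the 5 with the highest FPKM per TSS class with 1 or no mark, and per list the locus with the most shared positions and those that lean. Other list members were named after their values were seen. Counting was tested on 600 simulated loci, with 600 recovered. Python 3.11.15 was used with pandas 2.3.3, numpy 2.4.6, scipy 1.17.1 and matplotlib 3.10.9. Some loci that these rules name are not reported here.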

Additional observations from a re-analysis of the deposited data

How the results depend on the processing

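Peak lists without heights or P values did not allow a stricter threshold. The paper gives a minimum read number for its ChIP-Seq, and the depth of each ChIP-Seq library and of the RNA-Seq is unknown. No paired analysis was possible because each mark has 1 library and no result comes from a test, and no library could be left out for the same reason. With a neighbouring position allowed, 78.9% of H3K9ac peaks met H3K27ac and 62.8% of H3K27ac peaks met H3K9ac, and an overlap of 50% or autosomes alone gave values within the intervals.

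Loci with both marks, of those with either, were 87.6% (locus) and 87.1% (body) over all named loci, 78.2% (body) and 81.8% (TSS) with at least 2 positions of each, and 83.7% for a TSS window of 5 kb. Loci leaning to H3K9ac in the locus window numbered 148 with a difference of at least 5 and 1372 over all named loci. Those leaning to H3K27ac numbered 663 with that difference, 430 with counts scaled by list length and 1538 over all named loci. At the TSS, settings chosen after seeing the data gave 31 loci leaning to H3K27ac with scaled counts, 189 over all named loci and 191 within 5 kb.

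The ratio of H3K27ac to H3K9ac was 0.832 within 5 kb of a TSS. In bodies it was 2.57 beyond 5 kb and 1.67 over all named loci. With loci of all lengths together, it stayed below 1 at the TSS and above 1 in bodies in the settings run. In the bodies of loci under 10 kb it was 0.871. The median FPKM within 1 kb was 0.515 (H3K9ac without H3K27ac), 2.57 (H3K27ac without H3K9ac) and 0.00905 (neither). Within 5 kb it was 11.6 (both), 0.201, 0.218 and 0.00252. Among loci above 0 FPKM it was 0.533 (H3K9ac without H3K27ac) and 0.0642 (neither), and with run 1 or run 2 alone it was 0 for neither. The class with both marks had the highest median in every setting.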
